A study of Caenorhabditis elegans with 4 samples.

Results

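ATP-binding cassette (ABC) transporter genes were followed in Caenorhabditis elegans fed a natto strain of Bacillus subtilis. A gene was taken as a member when its symbol was pgp, mrp, haf, pmp, abt, wht or abcf followed by a number, or was ced-7. Of the 55 genes so named, haf-1 and pmp-5 were set apart, which left 53 of the 46881 genes in the count tables. They comprised 15 pgp, 8 mrp, 7 haf, 4 pmp, 9 wht and 3 abcf genes, and 7 genes of the ABCA type (6 abt genes and ced-7).

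The MI-OMU01 group was Bristol N2 wild-type hermaphrodites moved at 3 days of age to lawns of the B. subtilis natto strain MI-OMU01 and kept there for 1 day. The OP50 group was worms of the same strain, sex and age kept for 1 day on Escherichia coli OP50, the standard laboratory food. About 200 whole worms were collected per group, and each group held 2 libraries of poly(A) RNA. The labels do not say whether the replicates were grown as different cultures, and the p-values therefore reflect library-to-library spread only, possibly technical. RNA came from whole worms, so fewer cells of a type and less RNA per cell cannot be told apart.

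ABC transporters use ATP to move substrates across membranes, mostly out of the cytosol. P-glycoproteins (pgp) and multidrug-resistance proteins (mrp) export drugs, toxins, metal complexes and conjugated metabolites, and in the worm several line the gut or the excretory canal. The haf genes code for short transporters that must pair. The pmp proteins are relatives of those that carry fatty acyl-CoA into peroxisomes, though not each need do so. ABCA proteins (abt, ced-7) move lipids, and wht proteins are relatives of the fly eye pigment transporter white. The abcf proteins have the ATP-binding domains but no membrane part, and work with ribosomes.

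Libraries held 16962082 to 24381952 counted reads, and the members took 0.226% and 0.241% of the reads in the MI-OMU01 libraries and 0.228% and 0.223% in the OP50 libraries. Levels are given as CPM, which are counts relative to the TMM-scaled library size, or, between genes, as RPKM, which is that CPM per kilobase of exon. A gene passed the threshold at an adjusted p below 0.05 in edgeR's quasi-likelihood test, with Benjamini-Hochberg adjustment over the 14967 genes tested. Folds are relative to the TMM scale. Scaling by total counts put the median log2 fold change over the tested genes at 0.16, against 0.03 with TMM scaling.

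MI-OMU01-fed worms held more transcript of the ABCA gene abt-4 and of the P-glycoprotein genes pgp-5, pgp-9, pgp-11 and pgp-10. They held less of haf-9 and haf-4, whose products pair on granules of gut cells, and less of pgp-12, pgp-8 and pgp-3. The pmp genes moved both ways, with pmp-4 and pmp-1 higher and pmp-2 lower. Of the 53 members 52 had a read and 42 had enough reads to be tested. Of these 42, 17 passed the threshold, 8 of them higher and 9 lower. The share was 40.5%, against 29.7% of all genes tested (14.6% called higher and 15.2% called lower), and members were not matched with other genes on level.

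Of the 42 tested members 4 were called with a change of at least 2-fold (abt-4, pgp-5, haf-9 and pgp-12). The same held for 1914 of all 14967 genes tested (12.8%). Among called genes alone, that was 4 of 17 members and 1914 of 4449 genes. The median log2 fold change was -0.04 in the members and 0.03 in all tested genes, and the median of its absolute size was 0.28 and 0.29. In 24 of the 42 members the groups did not overlap, against 63.1% of all tested genes. With total counts as library sizes 8 members were higher and 6 lower, and without MI-OMU01 replicate 2, 5 were higher and 9 lower. The plot of log2 fold changes by subfamily shows the members side by side.

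**Figure D1:**
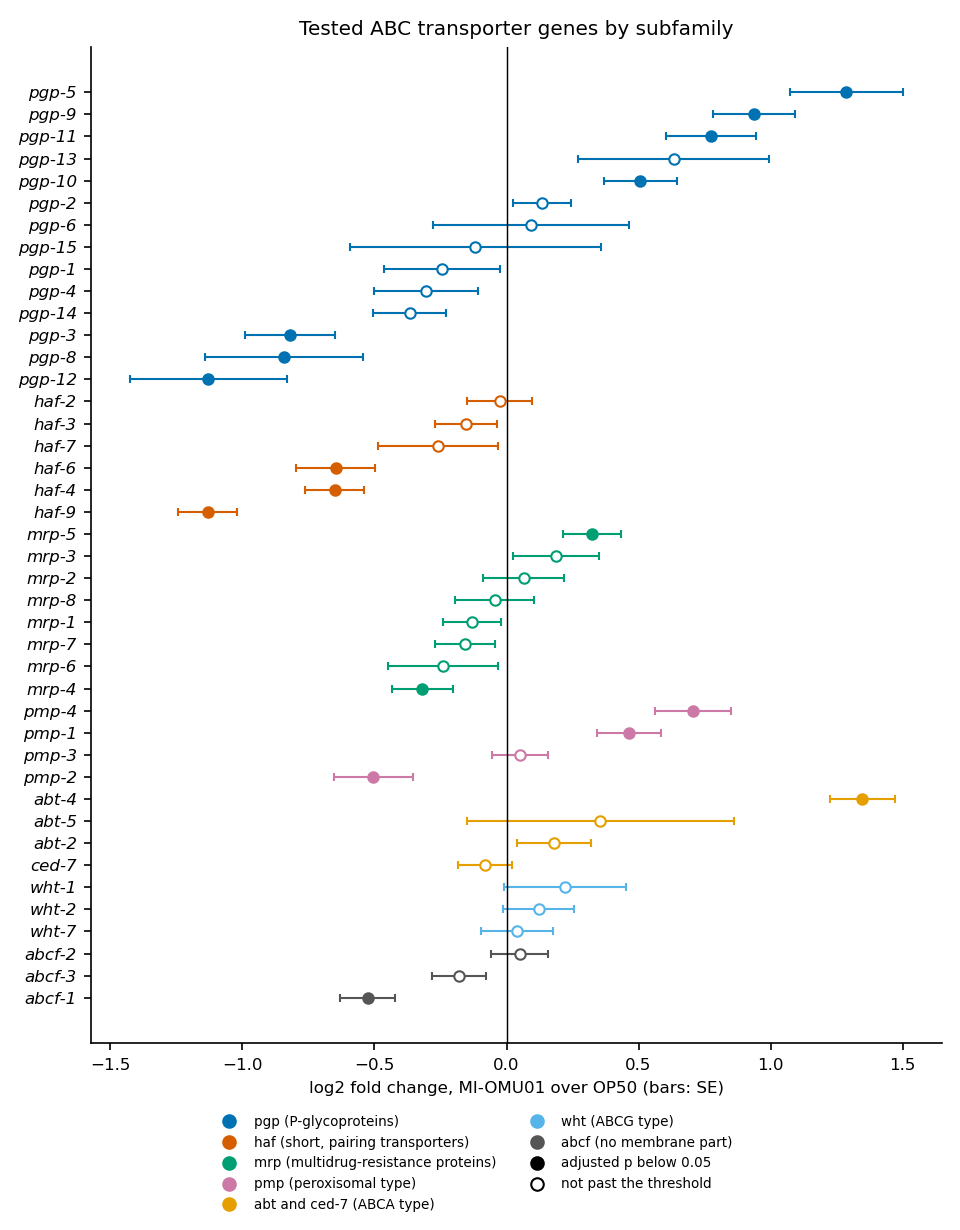
Log2 fold change (MI-OMU01 over OP50, x axis) of each of the 42 tested ABC transporter genes, grouped by subfamily from top to bottom, with bars for the SE. Filled points passed an adjusted p of 0.05, and they run from -1.13 (haf-9) to 1.35 (abt-4), with haf genes all left of or near 0 and pgp genes on both sides.

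Of the 14 P-glycoprotein genes tested, the largest subfamily, 4 were higher and 3 lower. That share of 50% compares with 29.7% of all genes tested. In the other subfamilies it was 75% of 4 pmp, 50% of 6 haf and 33.3% of 3 abcf genes. It was 25% of 8 mrp genes, 25% of 4 genes of the ABCA type and 0% of 3 wht genes. The calls of pgp-8, pgp-10 and pgp-12 did not hold in every alternative. The gene pgp-5 (WBGene00003999, chromosome X, 10854320 to 10859297 in WBcel235) is known for a part in resistance to bacterial infection and heavy metals. It stood at 9.32 and 10.9 CPM in MI-OMU01-fed worms, against 4.60 and 3.71 CPM in OP50-fed worms. Both MI-OMU01 libraries lay above both OP50 libraries, at 172 and 278 reads against 75 and 61 reads. The rise was 2.44-fold (log2 fold change 1.29, SE 0.22, adjusted p = 0.000117 in edgeR), and the call held in all 12 alternatives that tested the gene alone.

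For pgp-9 (WBGene00004003, chromosome V, 17755892 to 17764751) the levels were 7.27 and 9.54 RPKM in MI-OMU01-fed worms and 4.61 and 4.20 RPKM in OP50-fed worms. This 1.91-fold rise (adjusted p = 0.000106 in edgeR) was larger than the spread within either group, although the MI-OMU01 libraries differed more from each other than the OP50 libraries did. For pgp-11, whose counterpart in parasitic nematodes has been linked to ivermectin tolerance, the levels were 15.2 and 17.8 CPM in MI-OMU01-fed worms and 9.999 and 9.32 CPM in OP50-fed worms, a 1.71-fold rise (adjusted p = 0.00158 in edgeR). The gene pgp-10 stood at 29.7 and 31.4 CPM in MI-OMU01-fed worms and at 20.9 and 22.1 CPM in OP50-fed worms, 1.42-fold higher (adjusted p = 0.00831 in edgeR). Its groups did not overlap, but the adjusted p was 0.114 without MI-OMU01 replicate 2.

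The largest fall among P-glycoprotein genes was in pgp-12 (WBGene00004006, chromosome X, 12731850 to 12737440), which is expressed in the excretory canal cell. It had 1.73 and 2.24 CPM in MI-OMU01-fed worms, against 3.44 and 5.36 CPM in OP50-fed worms, from 32 and 57 reads and 56 and 88 reads. It was 2.19-fold lower (log2 fold change -1.13, SE 0.30, adjusted p = 0.00654 in edgeR; 0.0874 without OP50 replicate 2). Of 10 other markers of the excretory canal cell, all with reads in every library, 3 were higher. Fewer were higher in DESeq2 (1) and without MI-OMU01 replicate 2. All 10 summed to 234 to 254 CPM in MI-OMU01 libraries and 200 to 206 CPM in OP50 libraries. The part of canal cell RNA in the fall of pgp-12 was not tested.

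The gene pgp-3 codes for a gut P-glycoprotein that protects worms from plant and bacterial toxins. It fell 1.77-fold, with 9.05 and 11.6 CPM in MI-OMU01-fed worms and 17.7 and 18.9 CPM in OP50-fed worms (adjusted p = 0.000942 in edgeR). Its call held in all 12 alternatives that tested it alone. The low-level gene pgp-8 had 28 and 56 reads in MI-OMU01 libraries and 52 and 59 reads in OP50 libraries, a log2 fold change of -0.84 (adjusted p = 0.0389 in edgeR). That call was lost on leaving out OP50 replicate 2 (0.107) or MI-OMU01 replicate 1 (0.287), when scaled by total counts (0.0717) and in DESeq2 (0.166).

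Among the P-glycoprotein genes that did not pass, pgp-14 was nearest to the threshold. Its product builds a lipid barrier in the cuticle of the pharynx. It stood at 50.8 and 60.9 CPM in MI-OMU01-fed worms and at 61.8 and 82.5 CPM in OP50-fed worms (log2 fold change -0.37, adjusted p = 0.0503 in edgeR). Of 9 tested markers of the pharynx 4 were higher (ceh-22, marg-1, myo-2 and tnc-2) and 2 lower (phat-4 and phat-2). Fewer were higher in DESeq2 (1) and without OP50 replicate 1 or MI-OMU01 replicate 2. The list summed to 3104 to 3504 CPM in MI-OMU01 libraries and 2359 to 3056 CPM in OP50 libraries. Most of that sum was myo-2 (1222 and 1404 CPM on MI-OMU01, 882 and 1164 CPM on OP50) and myo-1 (1189 and 1326 CPM, 877 and 1168 CPM). The sum therefore does not give the direction of the pharynx markers as a set. Their part in the values of pgp-14 was not tested. Whether pgp-14 passed depended on the library left out. By mean RPKM over the 4 libraries the highest P-glycoprotein gene was pgp-2, which is needed to form the gut granules, at 18.5 and 18.1 RPKM in MI-OMU01-fed worms and 16.1 and 17.2 RPKM in OP50-fed worms. In OP50-fed worms alone pgp-14 stood level with it, at a mean of 16.8 RPKM against 16.7 RPKM for pgp-2. The log2 fold change of pgp-2 was 0.13 (SE 0.11, adjusted p = 0.400 in edgeR). The toxin exporter gene pgp-1 stood at 6.72 and 11.6 CPM in MI-OMU01-fed worms and at 11.8 and 10.1 CPM in OP50-fed worms, with overlapping groups (log2 fold change -0.24, SE 0.22, adjusted p = 0.460 in edgeR).

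**Figure D2:**
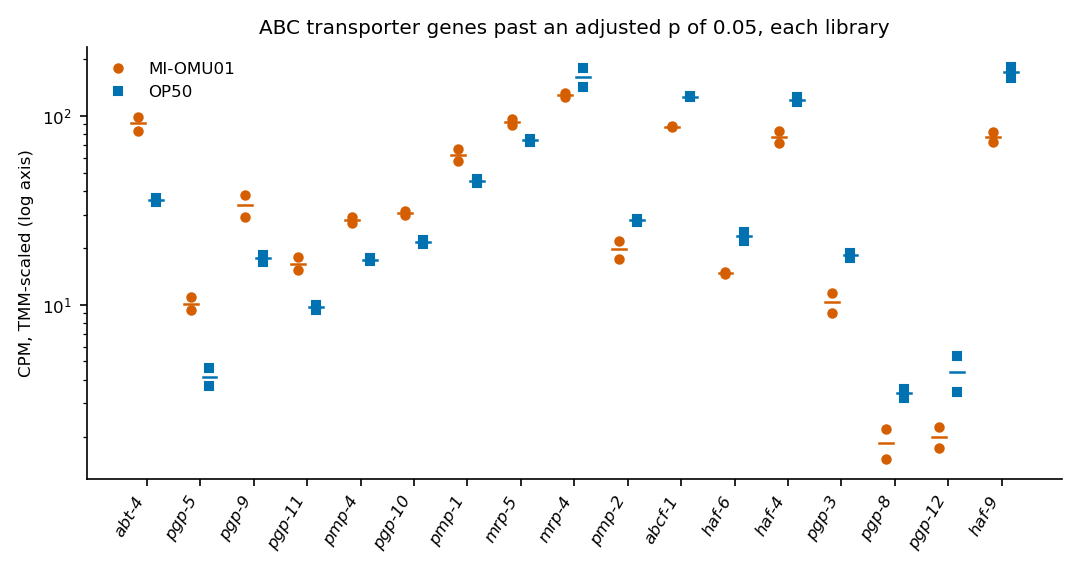
TMM-scaled CPM (y axis, log scale) in each library of the 17 ABC transporter genes past the threshold, ordered from the largest log2 fold change at the left to the smallest at the right. Circles are the 2 MI-OMU01 libraries and squares the 2 OP50 libraries, bars are group means, and the groups do not overlap for any of the 17 genes, from abt-4 (83.2 and 98.8 against 36.7 and 34.9 CPM) to haf-9 (72.9 and 82.0 against 158 and 182 CPM).

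Of the 6 tested haf genes 3 fell, and 0 were higher in edgeR, DESeq2 or limma-voom. The products of haf-9 (WBGene00001819, chromosome I, 6081782 to 6085962) and haf-4 (WBGene00001814, chromosome I, 489969 to 496150) pair in the membrane of lysosome-related granules of gut cells. The level of haf-9 was 72.9 and 82.0 CPM in MI-OMU01-fed worms and 158 and 182 CPM in OP50-fed worms. That of haf-4 was 71.8 and 83.4 CPM in MI-OMU01-fed worms and 118 and 126 CPM in OP50-fed worms. In both genes each MI-OMU01 library lay below each OP50 library.

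The fall was 2.19-fold for haf-9 (log2 fold change -1.13, SE 0.11, adjusted p = 1.95e-07) and 1.57-fold for haf-4 (log2 fold change -0.65, SE 0.11, adjusted p = 0.000146), both in edgeR, and both calls held in all 13 alternatives. Per length, haf-9 held 0.978 and 0.946 times the RPKM of haf-4 in the MI-OMU01 libraries and 1.28 and 1.39 times in the OP50 libraries. The ratio was thus near 1 on MI-OMU01 and above 1 on OP50, with no overlap between the groups. With 2 libraries a group, an exact two-sided permutation test of such a ratio cannot go below p = 0.333.

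The third gene to fall was haf-6, which is needed for efficient RNA interference. It stood at 14.5 and 14.8 CPM in MI-OMU01-fed worms and at 21.7 and 24.2 CPM in OP50-fed worms. This was a 1.57-fold fall (adjusted p = 0.00255 in edgeR), and the call held in all 13 alternatives. For haf-2, haf-3 and haf-7 the log2 fold changes were -0.03, -0.15 and -0.26, and none passed. The value of haf-2 was 0.11 with total counts as library sizes. For haf-7 the OP50 libraries lay at 7.55 and 13.2 CPM, on either side of the MI-OMU01 values, and leaving out OP50 replicate 1 gave an adjusted p of 0.0104, leaving out the other 0.590. The gene haf-8 had 1 read in all. Summed over the subfamily, haf genes made up 16.4% and 16.3% of the members' RPKM in MI-OMU01 libraries and 22.3% and 23.4% in OP50 libraries.

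Genes that build the gut granules were set beside haf-4 and haf-9, although the data do not show whether their products share an organelle. Of 14 such genes, glo-4 rose 1.46-fold (adjusted p = 0.00116) and the membrane fusion gene snap-29 1.32-fold (adjusted p = 0.00863) in edgeR, and the median log2 fold change was 0.02. The rise of snap-29 was lost without either MI-OMU01 library (adjusted p of 0.0562 and 0.166), and 1 gene was lower without either OP50 library and 2 with the length trend removed. Of 9 markers of the gut, all with reads in every library, 4 were higher and 3 lower, and their summed level was 10132 to 10556 CPM in MI-OMU01 libraries and 5414 to 5904 CPM in OP50 libraries. Most of that sum was the protease gene asp-1, at 8319 and 8553 CPM in MI-OMU01 libraries and 3217 and 3621 CPM in OP50 libraries. The sum therefore does not give the direction of the gut markers as a set. The other higher markers were ges-1, elt-7 and vha-6, and the lower ones were act-5, erm-1 and pho-1. The level of act-5 was 541 and 608 CPM in MI-OMU01 libraries and 858 and 919 CPM in OP50 libraries. The higher gut markers numbered 1 without OP50 replicate 1 or MI-OMU01 replicate 1 and 2 without MI-OMU01 replicate 2. The part of gut RNA in the changes of the transporters was not tested.

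Markers of other tissues moved as well. Of 9 tested epidermis markers 4 were lower (cut-2, dpy-7, rol-6 and wrt-2). The list summed to 619 to 645 CPM in MI-OMU01 libraries and 1519 to 1729 CPM in OP50 libraries. Of this, cut-2 alone held 178 and 251 CPM in MI-OMU01 libraries and 665 and 780 CPM in OP50 libraries. The log2 fold changes of elt-3 (0.21), lin-26 (0.18) and hch-1 (0.36) were positive and did not pass, and the number of higher markers varied with the library left out. Of 10 body wall muscle markers 7 were lower, and fewer were lower without MI-OMU01 replicate 1. The log2 fold changes of myo-3 (0.10), mlc-2 (0.11) and hlh-1 (0.34) were positive and did not pass. All 10 summed to 9090 to 10816 CPM in MI-OMU01 libraries and 11951 to 13780 CPM in OP50 libraries. Of 10 neuron markers 3 were higher (egl-3, ric-19 and sbt-1), and calls in this list varied with the library left out. All 10 summed to 1443 to 1586 CPM in MI-OMU01 libraries and 1029.6 to 1278 CPM in OP50 libraries. Of this, egl-3 alone held 686 and 741 CPM in MI-OMU01 libraries and 403 and 515 CPM in OP50 libraries. At most 1 marker passed among those of the germ line, sperm, and coelomocytes and gonad sheath, although 3 germ line markers were higher without OP50 replicate 1 and 3 lower without OP50 replicate 2. Their part in the transporter values was not tested.

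**Figure D3:**
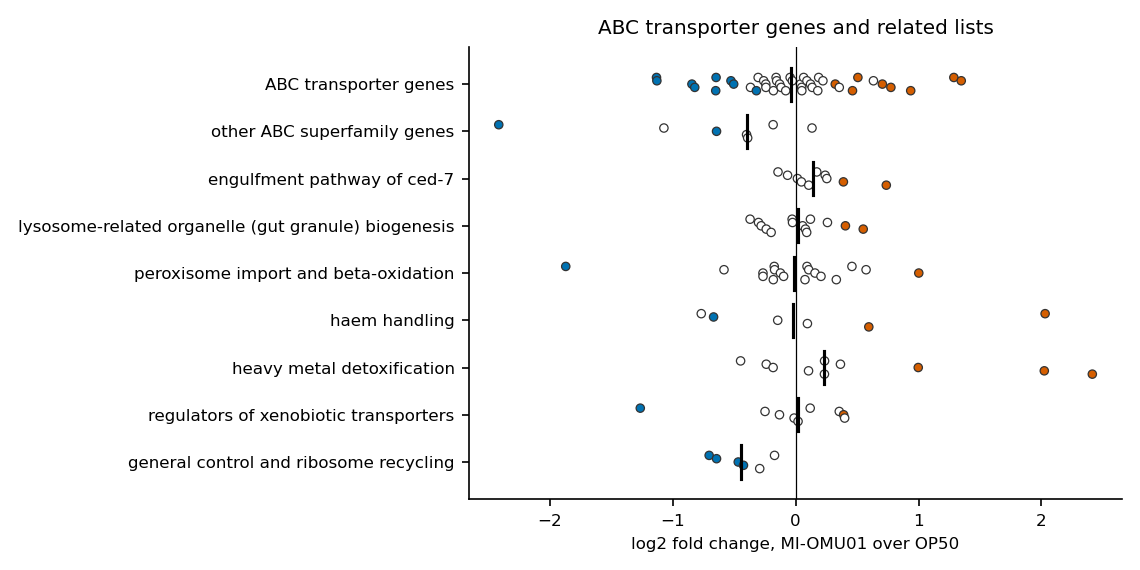
Log2 fold change (MI-OMU01 over OP50, x axis) of the 42 tested ABC transporter genes in the top line and of tested genes of related lists below. Orange points were higher and blue points lower past the threshold, open points did not pass, and black bars are medians, at -0.04 for the ABC transporter genes and 0.02 for gut granule genes.

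Changes in the multidrug-resistance genes were small, with 1 higher and 1 lower of 8. The gene mrp-5 (WBGene00003411, chromosome X, 14938502 to 14946317) exports haem from the gut and supplies vitamin B12 to embryos. It had 96.4 and 88.9 CPM in MI-OMU01-fed worms, against 72.4 and 75.7 CPM in OP50-fed worms, a 1.25-fold rise (log2 fold change 0.32, SE 0.11, adjusted p = 0.0311 in edgeR). The groups did not overlap, but the adjusted p was 0.103 without OP50 replicate 1, 0.348 without MI-OMU01 replicate 1, 0.126 without MI-OMU01 replicate 2 and 0.104 in DESeq2. Of 6 tested genes of haem and iron handling, the ferritin genes ftn-1 and ftn-2 rose 4.08-fold and 1.51-fold and the haem homeostasis gene hrg-7 fell 1.59-fold, and without OP50 replicate 2 another gene was lower.

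The subfamily's highest gene per length, mrp-4, stood at 26.1 and 24.9 RPKM in MI-OMU01-fed worms and at 35.6 and 28.1 RPKM in OP50-fed worms. It was 1.25-fold lower (adjusted p = 0.0446 in edgeR), and 7 of 13 alternatives ended this call, among them leaving out OP50 replicate 1 (0.252), MI-OMU01 replicate 1 (0.137) or MI-OMU01 replicate 2 (0.278), limma-voom (0.0561) and total counts as library sizes (0.238). The metal and toxin exporter gene mrp-1 had 89.3 and 101 CPM in MI-OMU01-fed worms and 99.0 and 109 CPM in OP50-fed worms (log2 fold change -0.13, SE 0.11, adjusted p = 0.422 in edgeR; 0.00 with total counts as library sizes). The groups overlapped. The others that did not pass had log2 fold changes between -0.24 (mrp-6; adjusted p = 0.0360 without OP50 replicate 1) and 0.19 (mrp-3). Of 10 tested genes of heavy metal detoxification, by comparison, cdr-1, mtl-1 and mtl-2 rose by 2.41, 2.02 and 0.998 on the log2 scale (1 gene lower without OP50 replicate 2 or MI-OMU01 replicate 2).

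All 4 pmp genes were tested and 3 passed. The gene pmp-4 (WBGene00004061, chromosome IV, 17402463 to 17405630) is the worm relative of the human adrenoleukodystrophy gene, whose product carries very long-chain fatty acyl-CoA into the peroxisome. It had 27.1 and 29.3 CPM in MI-OMU01-fed worms and 17.0 and 17.6 CPM in OP50-fed worms, a 1.63-fold rise (log2 fold change 0.71, SE 0.14, adjusted p = 0.000783 in edgeR) that held in all 13 alternatives. The libraries of a group differed by far less than the groups did. The highest pmp gene per length, pmp-3, is much used as a reference gene for quantitative PCR in worms. It stood at 40.1 and 44.1 RPKM in MI-OMU01-fed worms and at 42.1 and 39.3 RPKM in OP50-fed worms (log2 fold change 0.05, SE 0.11, adjusted p = 0.775 in edgeR), and the groups overlapped.

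The genes pmp-1 and pmp-2 lie 294 bases apart on chromosome II (6880701 to 6883754 and 6884049 to 6887805), on the same strand, and moved in opposite directions. The level of pmp-1 was 57.3 and 66.6 CPM in MI-OMU01-fed worms and 46.2 and 43.8 CPM in OP50-fed worms, 1.38-fold higher (adjusted p = 0.00633 in edgeR; 0.206 without MI-OMU01 replicate 2). That of pmp-2 was 17.4 and 21.8 CPM in MI-OMU01-fed worms and 28.3 and 27.5 CPM in OP50-fed worms, a 1.42-fold fall (adjusted p = 0.0143 in edgeR; 0.252 without MI-OMU01 replicate 1 and 0.0601 when scaled by total counts). Of the reads of both genes, pmp-1 held 76.7% (95% exact binomial interval 74.4 to 78.9) and 75.3% (73.5 to 77.1) in the MI-OMU01 libraries. In the OP50 libraries it held 62.0% (59.2 to 64.7) and 61.4% (58.5 to 64.2). Summed, their log2 fold change was 0.16 (adjusted p = 0.329 in edgeR).

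Of 18 genes for peroxisomal import and beta-oxidation, the catalase gene ctl-2 rose by 1.002 on the log2 scale and the acyl-CoA oxidase gene acox-1.2 fell 3.66-fold, with a median log2 fold change of -0.01 (4 higher with total counts as library sizes, 2 lower without OP50 replicate 1). Among ABC genes outside the 53, pmp-5 had 18.5 and 21.8 CPM in MI-OMU01-fed worms and 98.8 and 117 CPM in OP50-fed worms, a 5.33-fold fall (adjusted p = 4.62e-11 in edgeR), while the log2 fold change of haf-1 was 0.13 with an adjusted p of 0.631.

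Among neighbouring P-glycoprotein genes only pgp-5 and pgp-8 were called in opposite directions, pgp-5 higher and pgp-8 lower. The call of pgp-8 was lost in 4 of the 11 alternatives that tested it alone. On chromosome X pgp-5, pgp-8, pgp-7 and pgp-6 follow each other, with pgp-5 and pgp-8 only 53 bases apart. Of the reads of these 4 genes, pgp-5 held 75.1% (68.99 to 80.57) and 72.6% (67.8 to 77.0) in MI-OMU01 libraries, against 46.6% (38.7 to 54.6) and 43.9% (35.5 to 52.5) in OP50 libraries. Their summed reads rose by 0.59 on the log2 scale (adjusted p = 0.0183 in edgeR). No intervals overlapped between the groups, but intervals cover counting error only.

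In the run of pgp-12, pgp-13, pgp-14 and pgp-15, pgp-12 fell while pgp-13 had 37 and 46 reads in MI-OMU01 libraries and 22 and 18 reads in OP50 libraries (log2 fold change 0.63, SE 0.36, adjusted p = 0.211 in edgeR). Of the reads of pgp-12 and pgp-13, pgp-12 held 46.4% (34.3 to 58.8) and 55.3% (45.2 to 65.1) in MI-OMU01 libraries, against 71.8% (60.5 to 81.4) and 83.0% (74.5 to 89.6) in OP50 libraries. Summed over the 4 genes of this run, reads fell by 0.38 on the log2 scale (adjusted p = 0.0421 in edgeR). The neighbours pgp-3 and pgp-4 both had negative log2 fold changes, of -0.82 and -0.30 (adjusted p = 0.281 for pgp-4 in edgeR), and their summed reads fell by 0.64 on the log2 scale (adjusted p = 0.00265 in edgeR). Copies in such runs may share sequence, and how reads that fit several genes were counted is not given in the sources used here, so the split within each run is uncertain.

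**Figure D4:**
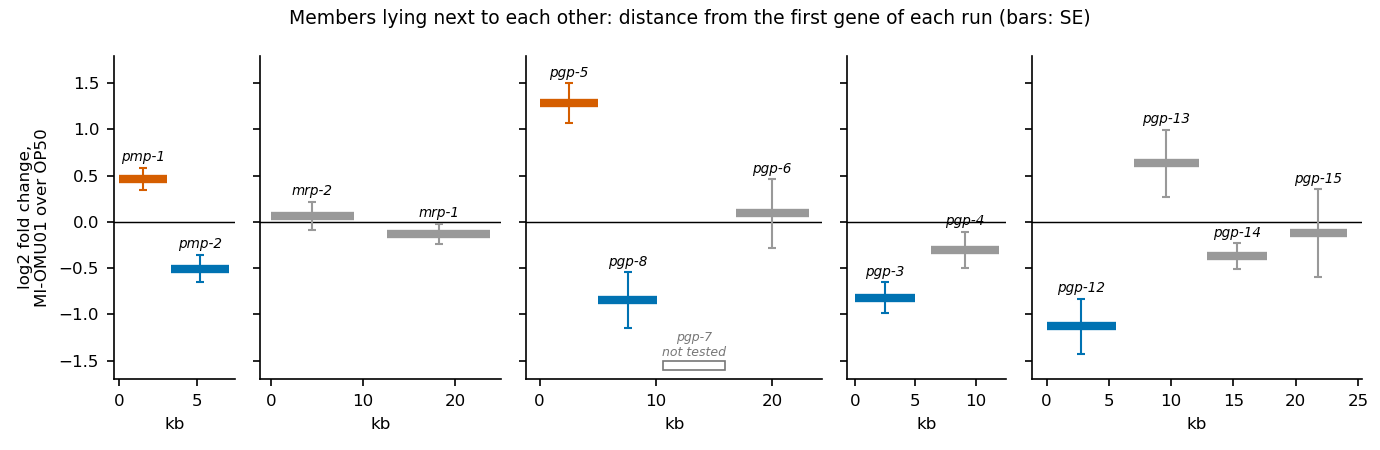
Log2 fold change (MI-OMU01 over OP50, y axis) of members that lie next to each other, drawn to scale by distance in kb from the start of each run (x axis, 1 panel per run). Thick bars are gene bodies, thin bars the SE, orange genes were higher, blue genes lower and grey genes not past the threshold, and pgp-7, with 4 reads in all, was not tested. The higher genes pmp-1 (0.46) and pgp-5 (1.29) each stand beside a lower one, pmp-2 (-0.50) and pgp-8 (-0.84).

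In the ABCA group abt-4 (WBGene00000022, chromosome V, 323774 to 330725) had 83.2 and 98.8 CPM in MI-OMU01-fed worms, against 36.7 and 34.9 CPM in OP50-fed worms. Each MI-OMU01 library lay above each OP50 library, with 1535 and 2514 reads against 598 and 573 reads. The 2.54-fold rise (log2 fold change 1.35, SE 0.12, adjusted p = 5.81e-08 in edgeR) was the largest among the 42 tested members and held in all 13 alternatives. The gene abt-2 did not pass, with 44.3 and 46.4 CPM in MI-OMU01-fed worms and 34.0 and 46.1 CPM in OP50-fed worms (log2 fold change 0.18, adjusted p = 0.376 in edgeR). Its adjusted p was 0.0157 without OP50 replicate 2, and its log2 fold change was -0.06 without OP50 replicate 1.

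The group's highest gene per length was ced-7, which acts in engulfing and dying cells so that cell corpses are cleared. It stood at 29.3 and 27.4 RPKM in MI-OMU01-fed worms and at 30.4 and 29.6 RPKM in OP50-fed worms. These groups lay apart by less than the test could call (log2 fold change -0.08, SE 0.10, adjusted p = 0.611 in edgeR), and the log2 fold change was 0.05 with total counts as library sizes. Of 10 other genes of the engulfment pathway, the lipid-binding protein gene nrf-5 rose 1.67-fold and the receptor gene ced-1 1.31-fold. The rise of ced-1 was lost without OP50 replicate 2 (adjusted p = 0.0572), MI-OMU01 replicate 1 (0.141) or MI-OMU01 replicate 2 (0.0796), and scaling by total counts made 4 genes higher. The genes abt-1, abt-3 and abt-6 had 29, 3 and 0 reads in all and were not tested, and abt-5 had 9 to 39 reads per library.

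Of the 9 wht genes only wht-1, wht-2 and wht-7 were tested, and none passed in edgeR, DESeq2 or limma-voom, with 0 genes at an unadjusted p below 0.05. The highest per length was wht-2, at 19.2 and 17.6 RPKM in MI-OMU01-fed worms and 18.8 and 15.03 RPKM in OP50-fed worms. Its log2 fold change was 0.12 (SE 0.13), and it was 0.04 (SE 0.14) for wht-7 and 0.22 (SE 0.23) for wht-1, with overlapping groups in each. The other 6 genes had between 2 and 28 reads per library, too few to show a change. The largest contrast among them was wht-8, with 7 and 10 reads in MI-OMU01 libraries and 2 and 2 reads in OP50 libraries.

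Among the abcf genes abcf-1 fell and the others did not pass. The level of abcf-1 (WBGene00006512, chromosome V, 12761044 to 12763375) was 88.4 and 87.0 CPM in MI-OMU01-fed worms and 127 and 125 CPM in OP50-fed worms. Libraries of a group were close to each other, and the 1.44-fold fall (log2 fold change -0.53, SE 0.10, adjusted p = 0.000606 in edgeR) held in all 13 alternatives. The gene abcf-2 was the highest of all 53 members per length, at 150 and 173 RPKM in MI-OMU01-fed worms and 157 and 154 RPKM in OP50-fed worms (log2 fold change 0.05, SE 0.11, adjusted p = 0.781 in edgeR). The gene abcf-3, related to yeast GCN20, stood at 50.4 and 51.5 RPKM in MI-OMU01-fed worms and at 59.1 and 56.5 RPKM in OP50-fed worms (log2 fold change -0.18, SE 0.10, adjusted p = 0.206 in edgeR).

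Of 6 genes of general control and ribosome recycling 4 fell. The median log2 fold change of the list was -0.45, against 0.03 in all tested genes. The largest falls were in gcn-1 (1.63-fold), the ribosome recycling ABC protein gene abce-1 (1.56-fold) and the initiation factor gene eif-2alpha (1.38-fold). Without MI-OMU01 replicate 2, 2 genes were lower, and eif-2alpha no longer passed (adjusted p = 0.0527). Among 9 regulators of transporter genes, cky-1, linked to ivermectin resistance in the sheep parasite Haemonchus contortus, fell 2.40-fold and mdt-15 rose 1.31-fold. The rise of mdt-15 was lost without OP50 replicate 1 (adjusted p = 0.115), MI-OMU01 replicate 1 (0.0838) or MI-OMU01 replicate 2 (0.0909). The nuclear receptor gene nhr-8, which acts on xenobiotic resistance, had a log2 fold change of 0.02.

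Levels of the members spanned a wide range in both groups. Mean RPKM over the 4 libraries ran down from abcf-2 (158) through abcf-3 (54.4), abcf-1 (52.7), haf-9 (47.0), pmp-3 (41.4) and haf-4 (39.4). In MI-OMU01-fed worms pmp-3 (42.1 ± 2.85 RPKM, SD, n = 2) and abcf-1 (43.2 ± 0.473) lay within their spread, as did haf-4 (30.7 ± 3.26), pmp-1 (29.6 ± 3.14) and haf-9 (29.4 ± 2.44). In OP50-fed worms haf-9 (64.6 ± 6.52) and abcf-1 (62.3 ± 0.727) lay within their spread, haf-4 stood at 48.2 ± 2.09 and pmp-1 at 21.5 ± 0.815. The 11 members with too few reads to test were abt-1, abt-3, abt-6, haf-8, pgp-7, wht-3, wht-4, wht-5, wht-6, wht-8 and wht-9, and the annotation calls abt-3, abt-6, pgp-15 and wht-9 pseudogenes.

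**Figure D5:**
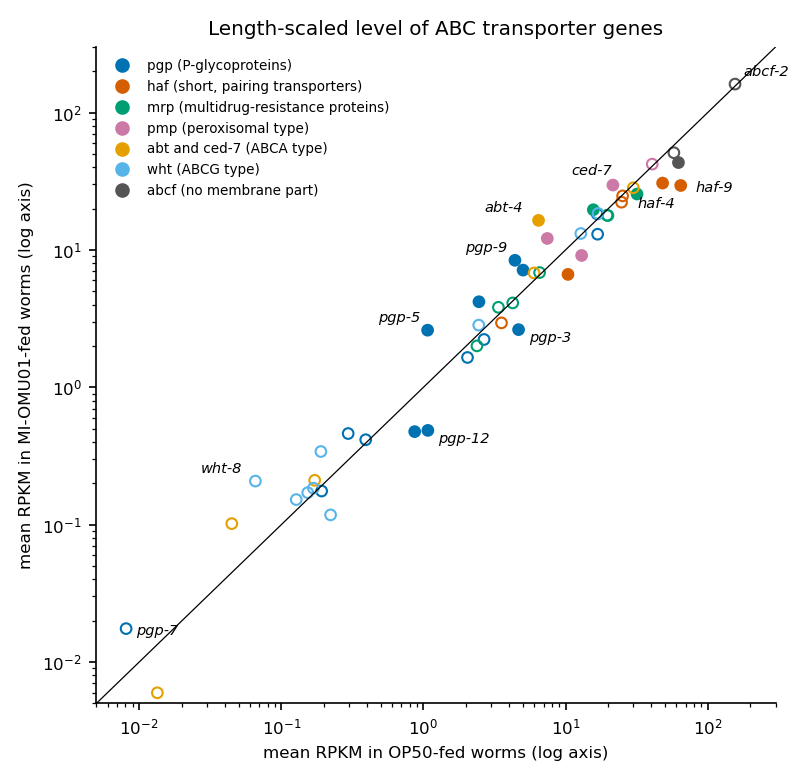
Mean RPKM of each member in MI-OMU01-fed worms (y axis) against OP50-fed worms (x axis), both log axes, with colours for subfamilies, filled points for the 17 genes past the threshold and the diagonal for equal levels. The genes abt-4 and pgp-5 lie above the diagonal and haf-9, haf-4, pgp-3 and pgp-12 below it, and abcf-2 is at the top (161 against 156 RPKM), while abt-6 and haf-8, at 0 in at least 1 group, cannot be drawn.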

How the data were processed

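Whole-worm poly(A) RNA of 4 libraries was compared, 2 per group, grouped by title. The deposited values are raw read counts by gene, given with an exon length. The kit was a stranded one, per the labels' protocols. The submitters' processing notes name featureCounts 1.6.4, STAR 2.7.2b, cutadapt 2.7, Trimmomatic 0.39 and Trim Galore 0.6.5, with builds WBcel235 and ce11. Their settings, the strand used in counting and the handling of reads that match several genes are not stated in these sources. Exons of 8 members overlap a protein-coding gene on the other strand, by at most 87 bases. Gene types come from Ensembl release 115. No sequence is printed, since none was in the reference used here.

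The main test was edgeR 4.0.16 in R 4.3.3 on all genes passing filterByExpr (counts of at least 10, total of at least 15), with TMM scaling, a robust quasi-likelihood fit on group alone and Benjamini-Hochberg adjustment. The biological coefficient of variation was 0.0965, and SE is the log2 fold change divided by the root of F. Chi-square per gene between libraries of a group was 10.2 (MI-OMU01) and 11.4 (OP50), above sampling noise. The limit that a count of 0 allows, 3 counts, is 0.163 and 0.118 CPM in the MI-OMU01 libraries and 0.184 and 0.183 CPM in the OP50 libraries. Without molecular identifiers, intervals and floors cover counting error only.

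Alternatives were size factors of DESeq2 1.42.0, scaling by total counts, the DESeq2 test, limma-voom (limma 3.58.1), other low-count filters (none, or 5 CPM in 2 libraries), leaving out each library, a replicate block, a gene length correction, and summed neighbouring members. The fit was tested on simulated data with 200 changed genes. It recovered 47.8% of genes changed 1.5-fold, 86.6% of those changed 2-fold and 100% of those changed 4-fold, with 9 false calls. Counts were drawn with the dispersions of the fit itself, and genes of the lowest levels were not changed. A member that did not pass may thus have changed by about 1.5-fold. Members and gene lists were chosen with earlier results of these data known. Library values are given for members past the threshold, the highest per subfamily, members of known role and those near the threshold; up to 3 called genes are named per related list.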

Additional observations from a re-analysis of the deposited data

How the results depend on the processing

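Of the 17 called members 10 kept their call in each alternative that tested them, 7 lost it in at least 1, and none changed direction. Leaving out each library gave 13 to 18 called members, 5 to 9 of them higher and 6 to 11 lower. Over all genes it gave 2935 to 4571 calls, 1262 to 2297 higher and 1505 to 2563 lower, and DESeq2 gave 1355 higher genes. Scaling by total counts made 65.3% of all calls higher, against 48.95% with TMM, and 57.1% of the members called, against 47.1%. The replicate numbers were not shown to pair the libraries (correlation of same-numbered deviations 0.14, from 2 pairs), and with the replicate block 18 members and 5807 genes were called. Of the 25 members that did not pass, 4 passed in an alternative and 17 changed sign in one; the cause was not tested. Scaled by total counts, log2 fold changes turned to 0.052 (ced-7), 0.11 (haf-2), 0.0028 (mrp-1), 0.088 (mrp-8) and 0.013 (pgp-15). They turned to 0.0087 (ced-7) and 0.024 (mrp-8) with the gene length trend removed, and to 0.0081 (haf-2) with the filter at 5 CPM. Leaving out each library, log2 fold changes crossed 0 for abcf-2 (-0.060 to 0.14), abt-2 (-0.062 to 0.42), abt-5 (-0.75 to 0.88), haf-2 (-0.18 to 0.10), haf-7 (-0.64 to 0.20), mrp-2 (-0.18 to 0.26), mrp-6 (-0.54 to 0.078), mrp-8 (-0.12 to 0.0066), pgp-1 (-0.70 to 0.074), pgp-6 (-0.26 to 0.51), pmp-3 (-0.023 to 0.11), wht-1 (-0.037 to 0.42), wht-2 (-0.033 to 0.25) and wht-7 (-0.060 to 0.11). Low counts limit the 11 untested members, for which no change could be shown.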
